A study of Homo sapiens with 27 samples.

Results

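The comparison described here asks where full-length MAML3 changed transcript levels differently in a neuroblastoma line than in a pair of pancreatic neuroendocrine tumour lines. It is an interaction: the change from vector to full-length MAML3 in SK-N-SH, minus the mean of the same change in BON-1 and in QGP-1, taken over all genes except MAML3 itself. The libraries were chosen by their labelled line and plasmid, which selected 18 of the 27 libraries of the series, 3 in each of 6 groups. The neuroblastoma line is SK-N-SH, while BON-1 as well as QGP-1 came from pancreatic neuroendocrine tumours. Each line was transfected by Lipofectamine with a pCMV6-AC plasmid, either empty (vector) or carrying the full-length MAML3 cDNA followed by a C-terminal V5 epitope (FL), and RNA was taken 3 days later. The 9 libraries that received MAML3 without its first exon enter only 1 alternative fit, and are otherwise given as levels at the end. Each line had its own growth medium, so line and medium cannot be told apart, and the cells were pools after transfection in which the share that took up plasmid is not given. The libraries of a group are biological replicates in the wording of the series' design text.

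Mastermind-like proteins are transcriptional coactivators. They are best known from Notch signalling, where the cleaved Notch receptor binds the DNA-binding protein RBPJ in the nucleus and a Mastermind-like protein joins them to recruit histone acetyltransferases and switch on targets such as the HES and HEY genes. MAML3 gene fusions that replace the first part of the protein occur in neuroendocrine tumours such as phaeochromocytoma and paraganglioma, which, like neuroblastoma, arise from the sympathetic lineage.

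The MAML3 level was used to check the labels, and with FL it was highest on average in SK-N-SH. In SK-N-SH the MAML3 level was 16.8, 30.3 and 18.7 CPM (counts scaled to library size) in the vector libraries and 12320, 15804 and 7836 CPM in the FL libraries. BON-1 vector libraries had 69.6, 70.4 and 62.8 CPM and FL libraries 2782, 3957 and 5350 CPM. In QGP-1 the vector libraries had 73.1, 38.4 and 93.4 CPM and the FL libraries 2223, 8273 and 5884 CPM. Every FL library was far above every vector library of its line. The ratio of the group means was 547 in SK-N-SH, 59.6 in BON-1 and 79.9 in QGP-1, and the part of this difference in the results below was not tested. Counts per gene do not separate the construct from native MAML3.

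**Figure D1:**
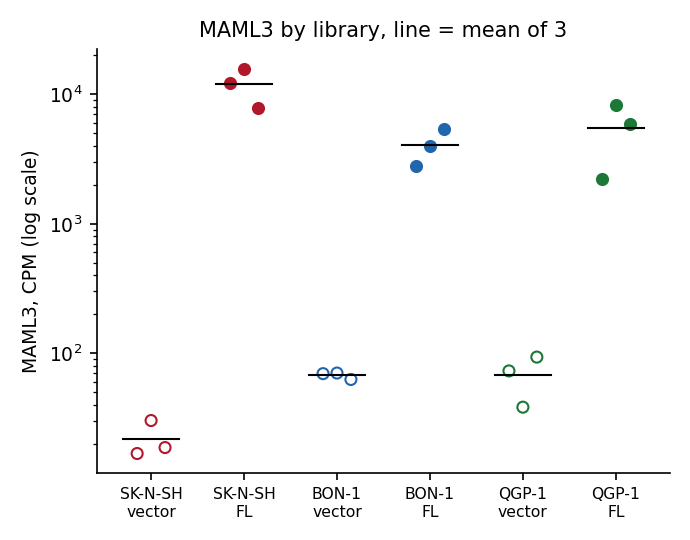
MAML3 level in CPM on a log axis for each of the 18 libraries, open points for vector and filled points for FL, with a line at each group mean. The SK-N-SH FL libraries lie between 7836 and 15804 CPM, against 2223 to 8273 CPM in the FL libraries of the pancreatic lines.

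Library totals were 73026244 to 120254457 in the deposited units, whose worth in sequenced fragments is not stated. In both pancreatic lines every FL library was deeper than every vector library. BON-1 had 73026244 to 87892041 units with vector and 92353136 to 110350759 with FL, and QGP-1 had 79395945 to 92435640 and 92977932 to 120254457. The SK-N-SH groups overlapped in depth. The part of depth in calls that rest on 0 in a pancreatic vector group was not tested. Line identity was checked on markers. HAND2, GATA3 and DBH, genes of the sympathetic lineage, averaged 69.7, 62.0 and 25.6 CPM in SK-N-SH vector libraries, against 0, 0.0196 and 0.0638 CPM in BON-1 vector and 5.85, 2.66 and 0.0191 CPM in QGP-1 vector. TH, the rate-limiting enzyme of catecholamine synthesis, averaged 0.0172 CPM in SK-N-SH vector. ISL1, on the same marker list, averaged 24 CPM in SK-N-SH, 0.299 CPM in BON-1 and 20.7 CPM in QGP-1 vector. CHGA, which marks neuroendocrine cells, averaged 7.68 CPM in SK-N-SH, 21132 CPM in BON-1 and 809 CPM in QGP-1 vector, and the 8 markers of this list, CHGA included, summed to 141 to 228, 12051 to 33515 and 672 to 966 CPM in these groups. EPCAM and CDH1, epithelial adhesion genes, averaged 797 and 689 CPM in BON-1 vector, 739 and 567 CPM in QGP-1 vector, and 0.296 and 0.0643 CPM in SK-N-SH vector. NEUROD1, an endocrine transcription factor, was listed at 0 in QGP-1. The 15 measured markers of blood, endothelial and Schwann cells summed to 227 to 326 CPM in SK-N-SH vector and 426 to 542 CPM in SK-N-SH FL libraries, nearly all of it CD68 (277 and 469 CPM on average), while CD3E was at 0 in both groups; the part of CD68 in the results was not tested. Some libraries stood apart within their line on the first principal component of log2 CPM: SK-N-SH vector replicate 3 was at -91.2, against 8.48 and 8.78 for replicates 1 and 2, and BON-1 vector replicate 1 was at 108.5, with the other 5 BON-1 libraries between -33.5 and -10.9. QGP-1 split into vector replicate 1 with FL replicates 1 and 2 (30.0 to 54.9) and the remaining libraries (-51.0 to -39.3).

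The FL effect differed between SK-N-SH and the mean of the pancreatic lines for 31 of 16567 genes tested (0.187%). The test was edgeR's quasi-likelihood test with a Benjamini-Hochberg adjusted p under 0.05. The effect in SK-N-SH was higher for 18 (0.109%) and lower for 13 (0.0785%). Genes that pass this test are called below. A call does not require a change in SK-N-SH. Among the 13, the SK-N-SH effects of KCNT2, TENM3, IFT57, HAPLN1 and HMGCLL1 did not pass alone (edgeR, adjusted p = 0.985, 0.55, 0.731, 0.2 and 0.0658). In bulk RNA a lower level can come from fewer cells that make a transcript or from less of it per cell, and these cannot be told apart. At an unadjusted p under 0.05 there were 1381 genes, 633 higher (3.82%) and 748 lower (4.51%). A gene was taken as measured in a line when its vector or FL group averaged at least 1 CPM there. Of the 31, 12 were measured in all 3 lines (0.116% of 10357 such genes), 9 higher and 3 lower. The other 19 were under 1 CPM in both groups of at least 1 line: 14 in SK-N-SH, 5 in BON-1 and 6 in QGP-1, and 8 were at or under the counting floor in both SK-N-SH groups. This floor was set at 15 units a library, which is 3 fragments if 1 fragment is worth 5 units, an assumption, and comes to between 0.135 and 0.194 CPM on average over a group. Genes with an SK-N-SH group, or both groups of a pancreatic line, at this level are given as CPM with the adjusted p and without a fold change.

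In the genes measured everywhere, the difference came with a change in SK-N-SH and little movement in BON-1 and QGP-1. For the 12 called genes the median size of the FL effect was 2.84 in SK-N-SH, 0.18 in BON-1 and 0.19 in QGP-1 on the log2 scale, and no pancreatic effect was larger than 0.60. Like the counts of separate libraries below, these sizes come from the values that picked the 12 genes and are no support for the calls. The SK-N-SH median includes fitted values of DLL4, SOX8, NFATC1 and LOC105370792, each with an SK-N-SH group under 0.2 CPM. Over all 10357 genes measured in 3 lines the median sizes were 0.16, 0.16 and 0.12, and 246, 87 and 62 genes had an effect larger than 1. The SK-N-SH FL libraries lay entirely on 1 side of the vector libraries for 11 of the 12, the BON-1 libraries for 1 and the QGP-1 libraries for 1. Over all 16567 tested genes, all FL libraries lay above vector for 10.3% in SK-N-SH, 4.52% in BON-1 and 5.64% in QGP-1. All lay below it for 8.96%, 3.42% and 4.34%. Tested against vector within each line, 107 genes passed in SK-N-SH (0.646%), 69 higher (0.416%) and 38 lower (0.229%), 1 in BON-1 (0.00604%, higher) and 11 in QGP-1 (0.0664%), 9 higher (0.0543%) and 2 lower (0.0121%). At an unadjusted p under 0.05 these were 1613, 828 and 636 genes. The interaction against BON-1 alone had 23 calls (0.139%), 16 higher (0.0966%) and 7 lower (0.0423%). Against QGP-1 alone there were 17 (0.103%), 10 higher (0.0604%) and 7 lower (0.0423%), and both use the same SK-N-SH libraries. The main count moved by more than 1.5-fold when BON-1 FL replicate 1 (18 genes) or SK-N-SH FL replicate 3 (56 genes) was left out. The SK-N-SH count of 107 fell to between 34 and 71 without any SK-N-SH vector library, SK-N-SH FL replicates 1 or 2, BON-1 FL replicate 1 or QGP-1 FL replicate 2. Without the replicate 3 libraries of SK-N-SH, an alternative chosen after seeing the data, 57 genes passed the main interaction, 23 of them among the 31.

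**Figure D2:**
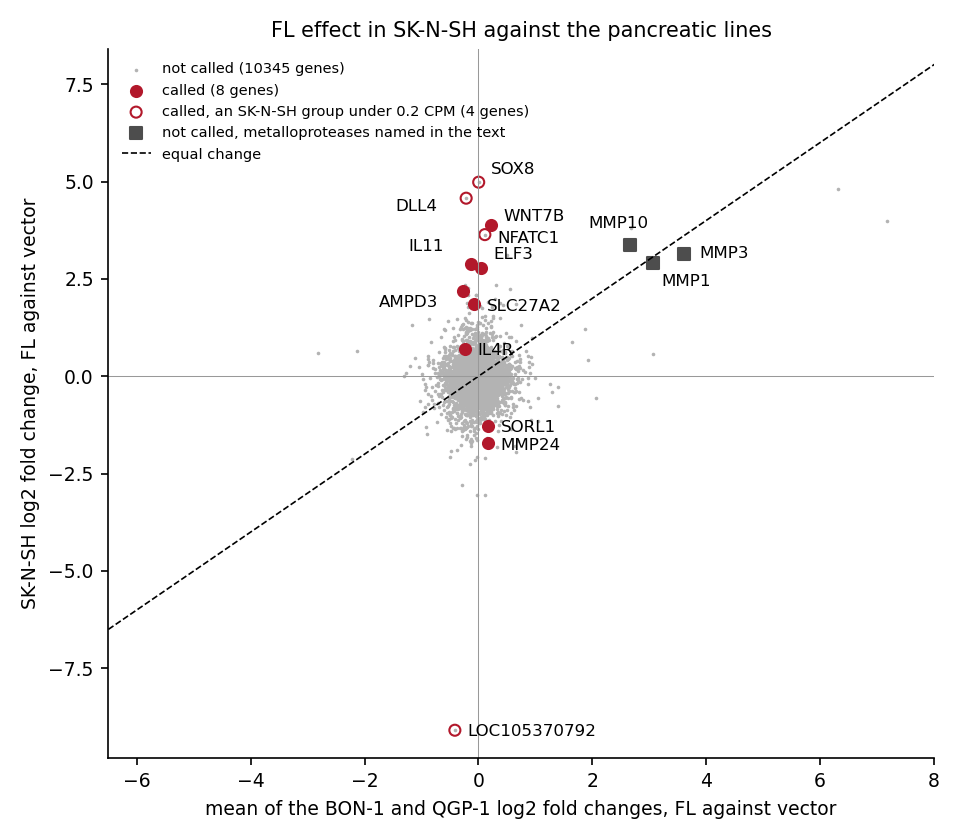
Log2 fold change of FL against vector in SK-N-SH (vertical) against the mean of the BON-1 and QGP-1 fold changes (horizontal) for the 10357 genes measured in all 3 lines. Red points are the 12 called genes, open where an SK-N-SH group averaged under 0.2 CPM, squares are metalloprotease genes that were not called, and the dashed line marks equal change. The called genes lie near 0 on the horizontal axis, while MMP1, MMP3 and MMP10 lie near the line of equal change. For MMP1 the horizontal value is the mean of unlike effects, 0.61 in BON-1 and 5.52 in QGP-1.

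Most of the called genes with a higher effect had their lowest vector level in SK-N-SH. SK-N-SH vector had the lowest mean of the 3 vector groups for 16 of the 18 called higher, against 36.3% of all tested genes, and for 12 of the 18 the SK-N-SH FL mean was still below both pancreatic vector means (37.2% of all tested genes). Among the 9 called higher that were measured in all lines, these counts were 7 and 4, against 37.2% and 37.6% of all genes measured in 3 lines. Of the 18, 8 averaged under 1 CPM in both SK-N-SH groups. For genes so low in SK-N-SH but present in the pancreatic lines, the order of the lines is largely fixed in advance. Of the 13 called lower, SK-N-SH vector was lowest for 3 and highest for 6, against 35.8% of all tested genes for the latter. These counts describe genes picked by the test and were not tested themselves.

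Promoter sequences of 3 called genes that were higher with FL in SK-N-SH are printed because they show which binding motifs do and do not occur directly before the start of such a gene. Each run is the 250 bases before the transcription start from RefSeq (GRCh38.p14), 5′ to 3′ on the gene's strand: IL11 at chr19:55370464-55370713 (minus strand), ELF3 at chr1:202010337-202010586 (plus strand) and DLL4 at chr15:40929090-40929339 (plus strand). Capitals mark matches to the RBPJ core TGGGAA, the AP-1 motif TGANTCA or the NF-kB consensus, searched on both strands. Of the 11 named genes measured in all lines, 9 had an entry in this table. The 3 were picked by no set rule, and of the others only MMP24 and SORL1 were searched as well. These windows do not stand for the called genes in general.
IL11: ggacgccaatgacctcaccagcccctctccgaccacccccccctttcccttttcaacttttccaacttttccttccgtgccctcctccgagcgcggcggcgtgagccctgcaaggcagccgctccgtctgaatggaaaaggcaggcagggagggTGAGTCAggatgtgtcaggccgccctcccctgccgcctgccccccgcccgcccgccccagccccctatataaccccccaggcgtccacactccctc
ELF3: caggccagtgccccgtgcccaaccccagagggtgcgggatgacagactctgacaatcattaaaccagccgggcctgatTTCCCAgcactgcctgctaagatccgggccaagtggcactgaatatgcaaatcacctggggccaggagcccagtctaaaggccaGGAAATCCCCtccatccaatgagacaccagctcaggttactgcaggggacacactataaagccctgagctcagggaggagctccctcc
DLL4: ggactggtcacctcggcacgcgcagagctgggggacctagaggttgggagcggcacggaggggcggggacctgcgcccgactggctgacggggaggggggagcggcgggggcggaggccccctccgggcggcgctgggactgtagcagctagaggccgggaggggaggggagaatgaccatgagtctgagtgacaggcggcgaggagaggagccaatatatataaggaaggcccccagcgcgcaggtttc
The IL11 window holds 1 AP-1 match at positions -96 to -90. In the ELF3 window the RBPJ core lies on the opposite strand at -172 to -167 and an NF-kB match on the opposite strand at -88 to -79. DLL4 has no match, nor have the windows of MMP24 and SORL1, the pair of genes with lower effects that had an entry. Over 35116 RefSeq windows of this length, 20.8% held the RBPJ core, 6.57% the AP-1 motif and 5.21% the NF-kB consensus. A match here describes letters and not binding.

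Among the ligands WNT7B, IL11, DLL4 and EREG rose with FL in SK-N-SH, whereas none of the 4 passed in BON-1 or QGP-1 (edgeR, adjusted p = 1.00 for each). WNT7B (hg19, chr22:46316246-46373042, minus strand), a ligand of the Wnt pathway, had 1.1, 0.566 and 0.563 CPM in the SK-N-SH vector libraries and 11.7, 13 and 8.69 CPM in the FL libraries. All 3 FL libraries were several times above the highest vector library. In BON-1 the vector libraries had 31.7, 47.4 and 59.5 CPM and the FL libraries 52.1, 50.1 and 63.2 CPM, and in QGP-1 they had 3.46, 1.89 and 2.75 CPM and 2.46, 4.14 and 2.72 CPM. The groups overlapped in both pancreatic lines. The interaction was 3.67 (adjusted p = 0.00136, standard error 0.40) by edgeR, with effects of 3.89 in SK-N-SH, 0.25 in BON-1 and 0.20 in QGP-1, and it passed under all 31 alternatives. Against each pancreatic line alone it was 3.64 (adjusted p = 0.00478, standard error 0.46) for BON-1 and 3.69 (adjusted p = 0.00389, standard error 0.46) for QGP-1.

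IL11 (hg19, chr19:55875750-55881831, minus strand), a cytokine of the IL6 family whose promoter is shown above, was at 21.9, 19.6 and 31.5 CPM in SK-N-SH vector and 173, 293 and 73.8 CPM in SK-N-SH FL. The FL libraries were all higher, with FL replicate 3 the lowest of them. BON-1 had 3.8 to 11 CPM and QGP-1 2.29 to 4.34 CPM over vector and FL together, with overlapping groups in each. The interaction of IL11 was 3.02 (adjusted p = 0.0362, standard error 0.55). This call was lost when any of 14 of the 18 libraries was left out, all but SK-N-SH FL replicate 3, BON-1 vector replicates 1 and 3 and QGP-1 FL replicate 3, with adjusted p of 0.00583 to 0.119 over the 18.

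DLL4 (hg19, chr15:41221538-41231271, plus strand), a membrane ligand that activates Notch receptors on the neighbouring cell, had 0, 0.0943 and 0.135 CPM in SK-N-SH vector, at the counting floor, and 1.36, 2.36 and 1.7 CPM in SK-N-SH FL. It was abundant in both pancreatic lines, at 74.2 to 128 CPM in BON-1 and 36.7 to 65.3 CPM in QGP-1. Every SK-N-SH FL library was above vector and far below every pancreatic library. The interaction of DLL4 had an adjusted p of 0.00183 and passed under all 31 alternatives. EREG (hg19, chr4:75230862-75254466, plus strand), the EGF receptor ligand epiregulin, was at 0.0309, 0 and 0 CPM in SK-N-SH vector and 32.4, 52.3 and 4.99 CPM in FL, with BON-1 at 104 to 329 CPM and every QGP-1 library under 0.1 CPM. The increase in SK-N-SH was uneven, with FL replicate 3 lowest. EREG had an adjusted p of 0.0305 in the interaction, 0.00811 against BON-1 alone and 0.242 against QGP-1 alone, where both groups are near 0. Its call was lost without any SK-N-SH vector library, BON-1 FL replicate 1 or QGP-1 vector replicates 1 or 2, with adjusted p of 0.00419 to 0.178 over the 18 libraries left out in turn. The EREG call was also lost with counts divided by 5, as if 5 units were 1 fragment. Over all 31 alternatives its adjusted p reached 0.398.

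Receptors moved both ways. IL4R (hg19, chr16:27324989-27376099, plus strand), the alpha chain of the interleukin 4 receptor, had 50.7, 46.9 and 43.8 CPM in SK-N-SH vector and 77.2, 86.6 and 66.5 CPM in FL. BON-1 vector libraries had 127, 114 and 112 CPM and BON-1 FL libraries 93, 90.0 and 98 CPM, and QGP-1 ranged over 4.02 to 5.91 CPM. The groups separated upward in SK-N-SH and downward in BON-1, although the BON-1 effect of -0.33 did not pass on its own (edgeR, adjusted p = 0.978). The interaction was 0.94 (adjusted p = 0.0415, standard error 0.17), a call kept without SK-N-SH FL replicate 3, QGP-1 vector replicates 1 or 3 or QGP-1 FL replicate 1 and lost without any other library (adjusted p 0.0217 to 0.121). The IL4R call was also lost with counts divided by 5 and with no filter on low counts.

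SORL1 (hg19, chr11:121323023-121504472, plus strand), a sorting receptor that binds the amyloid precursor protein, had 33.1, 33 and 33.8 CPM in SK-N-SH vector and 14.3, 13.5 and 13.6 CPM in FL. The replicates were tight and the groups far apart. BON-1 had 87.2, 87.6 and 119.7 CPM with vector and 91, 67.2 and 117 CPM with FL, and QGP-1 had 22.3, 33.3 and 35.1 CPM and 40.0, 38.7 and 44.4 CPM. BON-1 overlapped, while the QGP-1 FL libraries all lay above vector without passing on their own (adjusted p = 1.00). The interaction of SORL1 was -1.44 (adjusted p = 0.0271, standard error 0.24), at -1.18 (adjusted p = 0.187, standard error 0.28) against BON-1 and -1.71 (adjusted p = 0.0282, standard error 0.28) against QGP-1. It was lost without any SK-N-SH vector library, SK-N-SH FL replicates 1 or 2 or BON-1 FL replicate 1 (adjusted p 0.0142 to 0.0829 over the 18). KISS1R (hg19, chr19:917287-921005, plus strand), the kisspeptin receptor, was at 0 in all SK-N-SH vector libraries and at 0.65, 1.19 and 0.467 CPM in FL, with BON-1 at 0.78 to 2.51 CPM and QGP-1 at 24.9 to 38.4 CPM. Its adjusted p was 0.00149, and it passed under all 31 alternatives.

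The next 9 called genes encode transcription factors or a corepressor and are described together by a choice made after the calls were seen. Each was under 1.5 CPM in every SK-N-SH vector library. ELF3 (hg19, chr1:201977073-201986311, plus strand), an ETS factor of epithelial cells, was at 1.3, 0.966 and 1.09 CPM in SK-N-SH vector and 8.28, 10.9 and 4.06 CPM in FL. The FL libraries stood clear of vector, with replicate 3 the lowest. BON-1 had 143 to 349 CPM and QGP-1 121 to 179 CPM, with overlapping groups. For ELF3 the interaction was 2.74 (adjusted p = 0.0208, standard error 0.44), lost without SK-N-SH vector replicates 2 or 3 or SK-N-SH FL replicate 2 (adjusted p 0.00333 to 0.0775). SOX8 (hg19, chr16:1031770-1036979, plus strand), a factor of the SOXE group, had 0.0516, 0.106 and 0.0563 CPM in SK-N-SH vector and 2.69, 2.89 and 1.28 CPM in FL, against 1.63 to 9.01 CPM in BON-1 and 1.44 to 2.1 CPM in QGP-1. It reached the level of QGP-1 and passed under all 31 alternatives (adjusted p = 0.0068). NFATC1 (hg19, chr18:77155856-77289325, plus strand), a factor activated by calcineurin, had 0.0928, 0.0471 and 0.203 CPM in SK-N-SH vector and 0.778, 2.58 and 0.954 CPM in FL, with 1.76 to 3.59 CPM in BON-1 and 7.44 to 12 CPM in QGP-1. Its SK-N-SH groups did not overlap. The adjusted p of NFATC1 was 0.0353, and the call was lost without SK-N-SH vector replicates 1 or 2, SK-N-SH FL replicate 2, any BON-1 FL library or any QGP-1 library (0.0205 to 0.107 over the 18). With counts divided by 5 NFATC1 did not pass.

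Other called factors stayed under 1 CPM in SK-N-SH. FOXA2, a forkhead factor of endoderm, was at 0 in the SK-N-SH vector libraries and 0.115, 0.0895 and 0.0609 CPM in FL, against 178 to 348 CPM in BON-1 and 186 to 255 CPM in QGP-1 (adjusted p = 0.011). LMX1B, a LIM homeodomain factor, was at 0 in vector and 0.115, 0.112 and 0.193 CPM in FL (adjusted p = 0.00818). PITX1, another homeodomain factor, had 0, 0 and 0.0225 CPM and 0.663, 0.85 and 0.66 CPM (adjusted p = 0.0276), and CBFA2T3, a corepressor, 0, 0 and 0.045 CPM and 0.217, 0.145 and 0.112 CPM (adjusted p = 0.0362). In the other direction, MAF had 0.144, 0.283 and 0.124 CPM in SK-N-SH vector and OVOL2, a repressor that maintains the epithelial state, 0.0722, 0.0589 and 0.0788 CPM, and both were at 0 in all FL libraries (adjusted p = 0.0343 and 0.0492). The 3 FL libraries lay on 1 side of vector for all 6, at levels that rest on few fragments. Leaving out libraries changed no call of FOXA2 or LMX1B. PITX1 was lost without any SK-N-SH vector library, SK-N-SH FL replicate 2 or BON-1 FL replicate 1 (adjusted p 0.0118 to 0.0988). CBFA2T3 was kept only without SK-N-SH vector or FL replicate 3 or BON-1 vector replicates 1 or 3 (0.00183 to 0.11), MAF only without SK-N-SH vector replicate 3, BON-1 vector replicate 3, any BON-1 FL or any QGP-1 FL library (0.0295 to 0.09), and OVOL2 only without QGP-1 vector replicate 1 or QGP-1 FL replicates 1 or 3 (0.0216 to 0.122). With counts divided by 5, as if 5 units were 1 fragment, none of FOXA2, LMX1B, PITX1, CBFA2T3, MAF and OVOL2 passed.

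Genes of enzymes, a transporter and the matrix were also called. AMPD3 (hg19, chr11:10329860-10529126, plus strand), an AMP deaminase, had 7.51, 7.98 and 3.93 CPM in SK-N-SH vector and 32.2, 41.7 and 15.2 CPM in FL. Within SK-N-SH replicate 3 was lowest in both groups, and the groups did not overlap. BON-1 ranged over 15.3 to 27.7 CPM and QGP-1 over 10.1 to 14.1 CPM. Its interaction was 2.48 (adjusted p = 0.0208, standard error 0.41), lost without SK-N-SH FL replicates 1 or 2 (adjusted p 0.00293 to 0.0576 over the 18). SLC27A2 (hg19, chr15:50474393-50528582, plus strand), a fatty acid transporter and acyl-CoA synthetase, had 0.691, 0.79 and 0.372 CPM and 1.99, 1.47 and 3.22 CPM in SK-N-SH, far under BON-1 (88.7 to 110.2 CPM) and QGP-1 (49.4 to 58.9 CPM), with an interaction of 1.92 (adjusted p = 0.0208, standard error 0.32) that passed whichever library was left out and was lost with a replicate block (adjusted p = 0.0829, and 2.7e-06 to 0.0829 over the 31 alternatives).

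MMP24 (hg19, chr20:33814493-33864801, plus strand), a membrane-bound metalloprotease of neural tissue, fell with FL in SK-N-SH. Its SK-N-SH vector libraries had 23.6, 22.2 and 17.5 CPM and FL libraries 5.18, 9.33 and 4.7 CPM. In BON-1 MMP24 was at 3.72, 3.81 and 4.37 CPM with vector and 4.31, 5.63 and 4.88 CPM with FL, and in QGP-1 at 38.2, 38 and 38.9 CPM and 37.4, 38.9 and 41 CPM. The SK-N-SH groups were clearly apart, and the pancreatic groups nearly level. The interaction was -1.89 (adjusted p = 0.00711, standard error 0.27), with -2.04 (adjusted p = 0.0164, standard error 0.31) against BON-1 and -1.75 (adjusted p = 0.0443, standard error 0.31) against QGP-1, and it passed under all 31 alternatives. HAPLN1 (hg19, chr5:82933624-83016674, minus strand), which encodes a link protein that ties proteoglycans to hyaluronan, had 86.5, 81.5 and 149 CPM in SK-N-SH vector and 21.2, 27.7 and 45.2 CPM in FL. It was near 0 in pancreatic vector libraries and somewhat higher with FL, at 0, 0 and 0.0587 CPM and 0.676, 0.668 and 0.446 CPM in BON-1 and 0.0521, 0 and 0 CPM and 0.43, 0.559 and 0.104 CPM in QGP-1. All 3 lines had separate groups, lower with FL in SK-N-SH and higher in the others. None of the 3 effects passed alone (adjusted p = 0.2, 0.192 and 0.199), whereas the interaction did, with adjusted p = 0.00711, under all 31 alternatives.

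**Figure D3:**
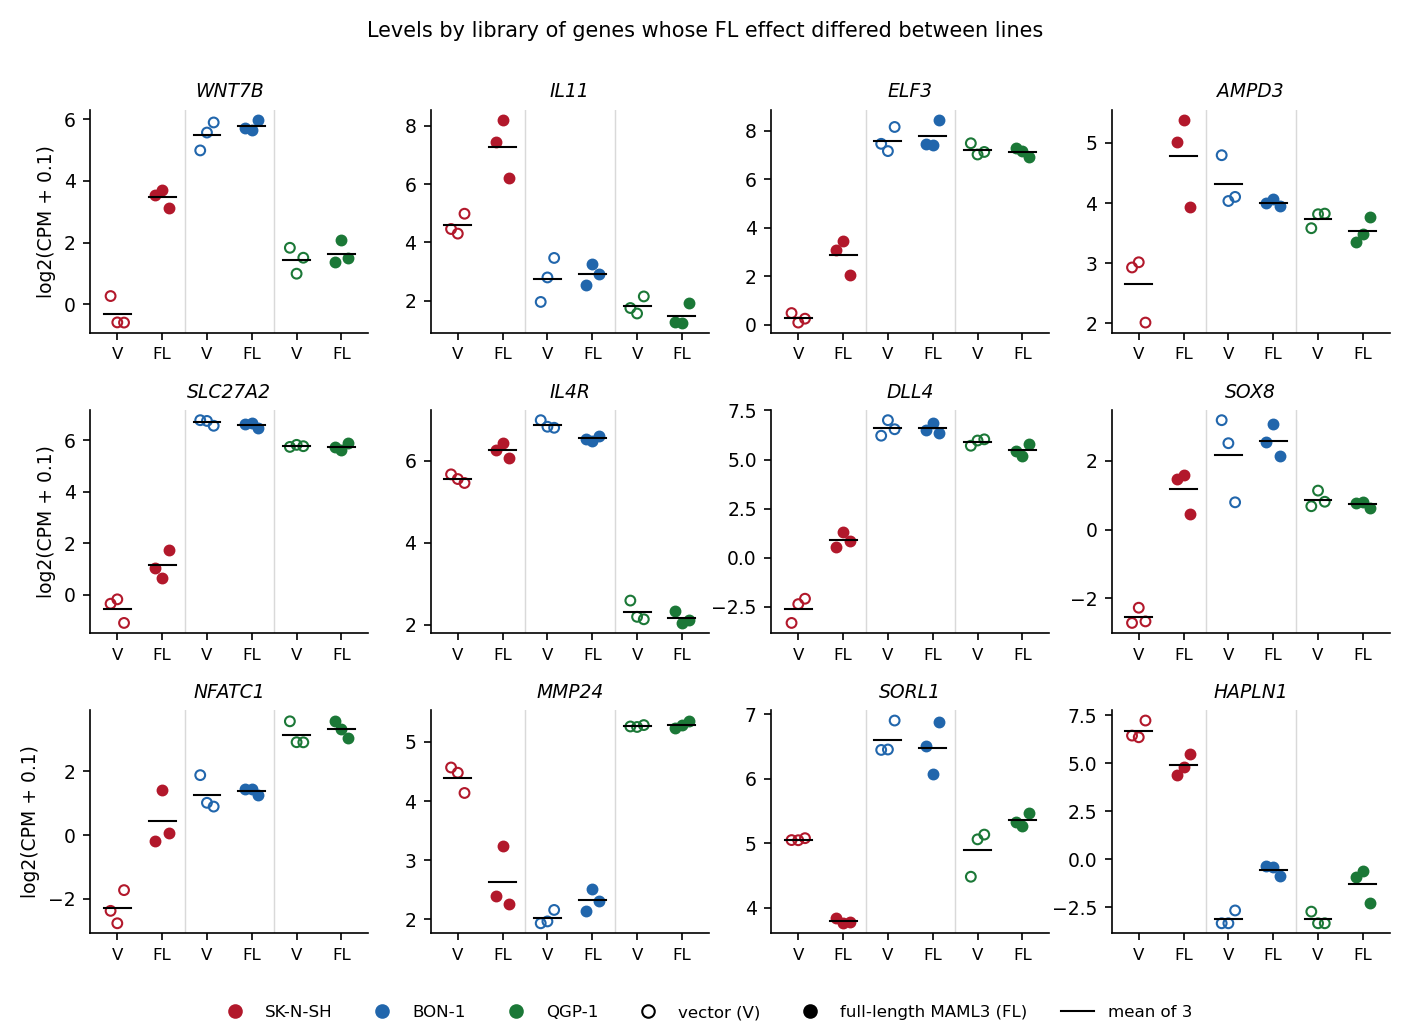
Level of 12 called genes in each library as log2(CPM + 0.1), open points for vector (V) and filled points for FL, with a line at each group mean of the plotted values. In SK-N-SH the FL libraries of WNT7B (8.69 to 13.0 CPM) and DLL4 (1.36 to 2.36 CPM) lie above vector and those of MMP24 and SORL1 below it, while the pancreatic groups lie close to each other except for HAPLN1.

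The remaining calls came from genes near 0 in at least 1 line. DMKN, which encodes the epidermal protein dermokine, was at 0 in SK-N-SH vector and 0.332, 0.459 and 0.386 CPM in FL, with 115 to 127 CPM in BON-1 and 4.37 to 8.04 CPM in QGP-1 (adjusted p = 0.000425, the smallest of the 31). RNLS, which encodes renalase, was at 0 and 0.485, 0.481 and 0.0914 CPM in SK-N-SH (adjusted p = 0.00711), and CBLC, a ubiquitin ligase of the CBL family, at 0 and 0.128, 0.0559 and 0.406 CPM (adjusted p = 0.0415). CBLC was kept only without SK-N-SH FL replicates 2 or 3 or QGP-1 FL replicate 1 (adjusted p 0.00955 to 0.104 over the 18). GCG, the proglucagon gene, was the 1 called gene whose own effect passed in opposite directions. It had 0.0928, 0.141 and 0.0563 CPM in SK-N-SH vector and 0 in FL, and it was at 0 in every pancreatic vector library, with 0.423, 0.449 and 0.203 CPM in BON-1 FL and 1.25, 0.793 and 1.32 CPM in QGP-1 FL (interaction adjusted p = 0.00473; 0.0488 in SK-N-SH and 0.0257 in QGP-1). The interaction call was lost with a replicate block (adjusted p = 0.14, and 8.41e-12 to 0.14 over the 30 alternatives in which GCG was tested). All SK-N-SH values of GCG are under the floor of 0.167 CPM in that group. IFT57, a subunit of the intraflagellar transport machinery, passed on its own in QGP-1, where it was at 0 in vector and 0.26, 0.0831 and 0.142 CPM in FL, while SK-N-SH had 65.3, 65 and 61.2 and 52.7, 51.1 and 44.5 CPM (adjusted p = 0.00767). KCNT2, a potassium channel gene, and TENM3, a teneurin of synaptic adhesion, had low counts in BON-1 FL, at 0.122, 0.0985 and 0.0406 CPM and 0.047, 0.0547 and 0.0507 CPM against 0 in BON-1 vector, while their SK-N-SH groups overlapped (adjusted p = 0.0208 and 0.0353). In QGP-1 KCNT2 was at 0 in vector and 0.04, 0.0302 and 0.0474 CPM in FL. Its call was lost with limma-trend, a replicate block, all 27 libraries or counts divided by 5 (adjusted p 0.000443 to 0.282 over the 31 alternatives). That of TMEM105 was lost with a replicate block or counts divided by 5 (0.00621 to 0.441 over the 30 alternatives in which it was tested). HMGCLL1, related to the HMG-CoA lyase gene, TMEM105 and CCDC110 had SK-N-SH vector values of 0.0516 to 0.191, 0.0563 to 0.0825 and 0.0563 to 0.318 CPM and were at 0 in SK-N-SH FL (adjusted p = 0.0281, 0.011 and 0.0415). Over the 18 fits without a library the adjusted p of TENM3 ranged over 0.0256 to 0.0779, that of HMGCLL1 over 0.0288 to 0.0628 and that of CCDC110 over 0.022 to 0.111, and 6, 13 and 3 of these fits kept the call. The call was kept only without SK-N-SH vector or FL replicates 1 or 3 or QGP-1 vector replicates 1 or 3 for TENM3 and only without an SK-N-SH vector library for CCDC110, and it was lost without SK-N-SH FL replicates 1 or 2, BON-1 FL replicate 1, QGP-1 vector replicate 2 or QGP-1 FL replicate 2 for HMGCLL1. LOC105370792, an uncharacterised locus outside the naming rule, is named after its values were seen because its vector libraries disagreed: SK-N-SH vector had 0.103, 54.4 and 65.7 CPM and FL 0.115, 0.0448 and 0.0609 CPM, so that vector replicate 1 lay with FL. It passed in 1 of the 18 fits without a library, that without SK-N-SH vector replicate 1 (adjusted p 1.15e-05 to 0.173). With counts divided by 5, LOC105370792, RNLS, CBLC, IFT57, TENM3, HMGCLL1 and CCDC110 did not pass.

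Metalloproteases of the chromosome 11 cluster are the counterpart: 3 of them rose with FL in SK-N-SH and in at least 1 pancreatic line. MMP3 (stromelysin 1, hg19, chr11:102706532-102714340, minus strand) had 25.2, 28.3 and 29.5 CPM in SK-N-SH vector and 212, 335 and 189.7 CPM in FL. In BON-1 it had 0.265, 0.171 and 0.282 CPM and 3.68, 4.6 and 2.68 CPM, and in QGP-1 0.0521, 0.115 and 0.142 CPM and 1.04, 1.74 and 0.294 CPM. The groups did not overlap in any line, although the QGP-1 vector libraries were at the floor. MMP3 passed upward in all 3 lines, at 3.15 (adjusted p = 0.00441, standard error 0.44) in SK-N-SH, 3.93 (adjusted p = 0.0236, standard error 0.51) in BON-1 and adjusted p = 0.036 in QGP-1, and its interaction of -0.47 (adjusted p = 1.00, standard error 0.54) did not pass. The BON-1 call was lost without SK-N-SH vector or FL replicate 1, BON-1 vector replicates 2 or 3, BON-1 FL replicates 1 or 2, QGP-1 vector replicate 2 or QGP-1 FL replicate 1 (adjusted p 0.000279 to 0.103) and with a replicate block (adjusted p = 0.0819, and 8.16e-12 to 0.103 over all alternatives), and the QGP-1 call was kept only without SK-N-SH FL replicates 2 or 3, BON-1 FL replicate 3 or QGP-1 FL replicate 3 (0.000936 to 0.142).

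MMP1 (interstitial collagenase, hg19, chr11:102660132-102668891, minus strand) had 89.8, 101 and 38.8 CPM in SK-N-SH vector, 447, 656 and 616 CPM in SK-N-SH FL, 3.73, 2.51 and 2.36 CPM in QGP-1 vector and 101, 167 and 127 CPM in QGP-1 FL. BON-1 was already high with vector, at 203, 54.9 and 147 CPM, and overlapped FL at 189.6, 152 and 276 CPM. MMP1 rose by 2.90 (adjusted p = 0.00819, standard error 0.45) in SK-N-SH and by 5.52 (adjusted p = 0.000275, standard error 0.51) in QGP-1, with 0.61 (adjusted p = 1.00, standard error 0.42) in BON-1. MMP10 (stromelysin 2, hg19, chr11:102641233-102651359, minus strand) rose by 3.37 (adjusted p = 0.00135, standard error 0.40) in SK-N-SH and 4.07 (adjusted p = 0.000536, standard error 0.42) in QGP-1. Its level was 7.74, 10.7 and 5.4 CPM in SK-N-SH vector and 62.7, 82.7 and 102 CPM in FL, and 11.2, 9.12 and 8.5 CPM and 118, 196 and 171 CPM in QGP-1. In BON-1 the FL libraries of MMP10 also lay above vector, but its effect of 1.25 (adjusted p = 0.791, standard error 0.37) did not pass. The main interactions of MMP1 and MMP10 were -0.16 (adjusted p = 1.00, standard error 0.51) and 0.71 (adjusted p = 0.798, standard error 0.45), neither called. Between the pancreatic lines, 2 genes differed (BON-1 minus QGP-1, 0.0121%), MMP1 at -4.91 (adjusted p = 0.0176, standard error 0.62) and IFT57 at adjusted p = 0.0406, with 602 genes at an unadjusted p under 0.05. The MMP1 call was lost without BON-1 vector replicate 3, BON-1 FL replicates 1 or 2 or QGP-1 vector replicate 3 (adjusted p 0.00116 to 0.132), and that of IFT57 was kept only without BON-1 vector replicate 1 or a QGP-1 FL library (0.00289 to 0.137). With a replicate block or a term for replicate 3 neither gene passed, at adjusted p = 0.131 and 0.0783 for MMP1 (4.39e-12 to 0.132 over the 31 alternatives).

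Inflammatory genes driven by NF-kB had nearly all of their SK-N-SH FL libraries above vector, yet no member was called in the interaction. Of 20 tested members, 19 had all SK-N-SH FL libraries above all vector libraries (background 10.3%), 4 did so in BON-1 (4.52%) and 3 in QGP-1 (5.64%). In the SK-N-SH effect 7 passed upward (background 0.416%). In the interaction 0 of 20 passed by edgeR and 3 had an unadjusted p under 0.05, all higher (background 3.82%). Only 5 members were measured in all 3 lines, which limits what the contrast can show. Members near 0 in the pancreatic lines had little room to separate there, and the list was chosen with earlier results of these data known. The counts of separate libraries therefore describe the list and are no test of it. Their median effect was 1.55 in SK-N-SH, 0.26 in BON-1 and 0.16 in QGP-1, and the median interaction 0.92, against -0.01 over all measured genes. Over all 20 tested members these medians were 3.70, 0.20, 0.06 and 2.25, fitted values that rest on groups at or near 0, and the interaction median moved over 1.06 (without BON-1 vector replicate 3) to 3.18 (without BON-1 FL replicate 3) with a library left out. With CXCL2, which was at 0 in QGP-1 vector, taken at the counting floor there, the median interaction was 1.13. CXCL8, a neutrophil chemokine, had 315, 341 and 75.3 CPM in SK-N-SH vector and 3960, 5003 and 1258 CPM in FL, 16.1, 44.6 and 75.2 and 88, 109 and 209 CPM in BON-1, and 0.156, 0.263 and 0.132 and 0.29, 5.46 and 1.71 CPM in QGP-1. Although FL libraries were above all vector libraries of their line throughout, no single line passed for CXCL8, and the interaction was 1.13 (adjusted p = 0.94, standard error 1.03). CXCL2, a related chemokine, was at 0 in QGP-1 vector and 0.37, 1.71 and 1.6 CPM in QGP-1 FL, 0.294, 0.502 and 0.822 and 2.21, 4.24 and 4.93 CPM in BON-1 and 12.9, 9.97 and 2.79 and 252, 413 and 53.7 CPM in SK-N-SH (interaction adjusted p = 1.00). SOD2, the mitochondrial superoxide dismutase, ICAM1, an adhesion molecule for leukocytes, and LIF, an IL6 family cytokine, had interactions of 1.43 (adjusted p = 0.497, standard error 0.58), 0.92 (adjusted p = 0.8, standard error 0.58) and 0.81 (adjusted p = 0.647, standard error 0.41). The cytokine CSF3, given as the member of smallest p, was at 0.186, 0.342 and 0.101 CPM in SK-N-SH vector and 36.7, 72.8 and 3.75 CPM in FL and under 0.3 CPM in every pancreatic library (interaction adjusted p = 0.166). PTGS2, the inducible cyclooxygenase, was under 0.2 CPM in BON-1 and at 6.67, 8.17 and 7.55 and 31.3, 80.4 and 39 CPM in QGP-1, where all FL libraries were higher. CXCL8, CXCL2, SOD2, ICAM1, LIF and PTGS2 were picked for naming after their values were seen.

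**Figure D4:**
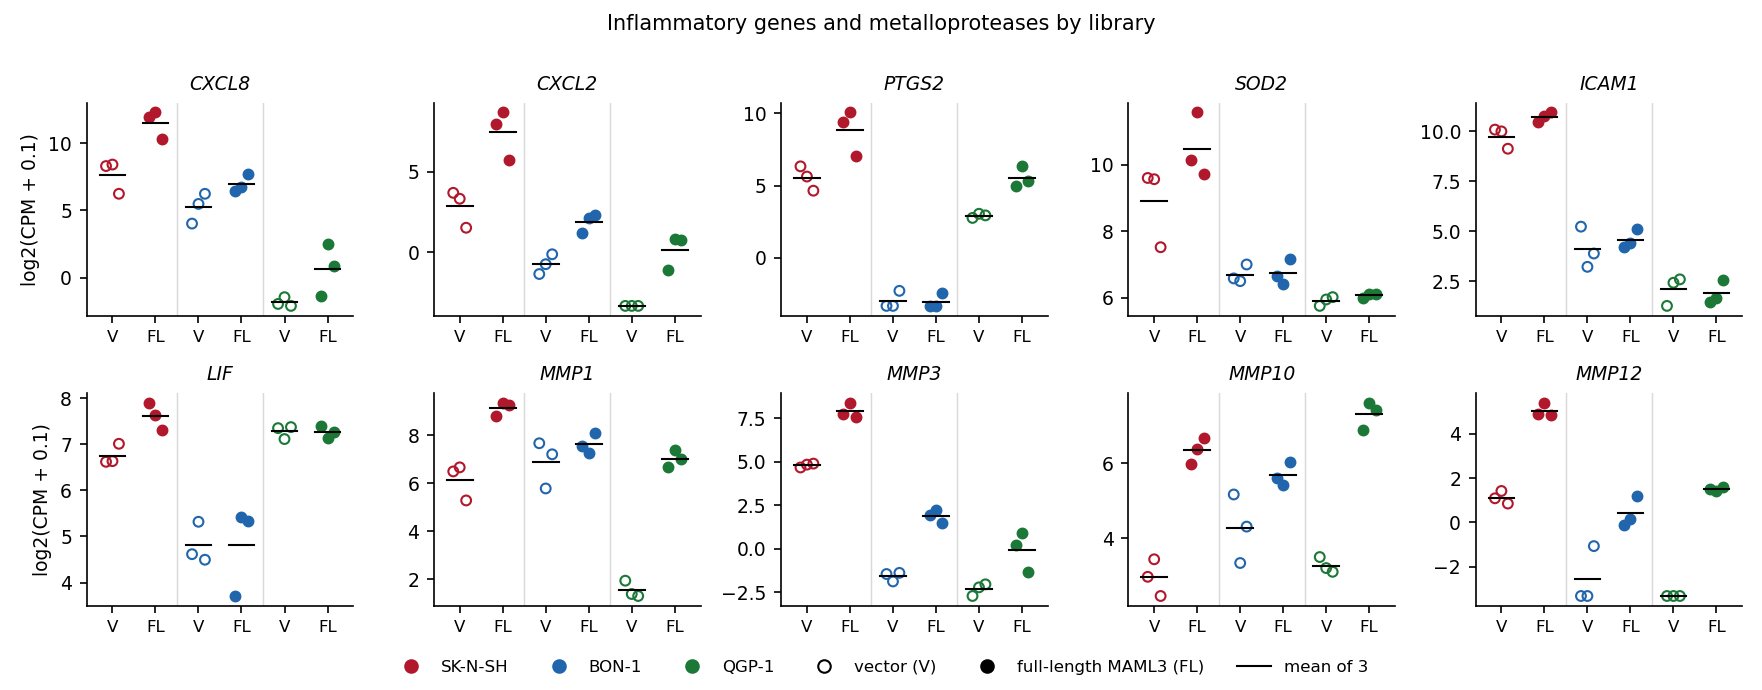
Level of inflammatory genes and metalloproteases in each library as log2(CPM + 0.1), open points for vector and filled points for FL, with a line at each group mean of the plotted values. FL libraries of CXCL8 and MMP3 lie above vector in all 3 lines, those of MMP1 overlap vector only in BON-1, and LIF in QGP-1 stays level (138 to 167 CPM).

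Notch genes, where a Mastermind-like coactivator would act, had median interactions near 0 as groups. Of 26 tested receptors, ligands and complex members, DLL4 alone was called (background 0.187%). At an unadjusted p under 0.05 by edgeR 3 were higher (background 3.82%) and 3 lower (4.51%). The 25 members measured in all lines had a median interaction of 0.06. LFNG, a glycosyltransferase that modifies Notch receptors, is named after its values were seen. It had 10.9, 11.2 and 12.4 CPM in SK-N-SH vector and 27.5, 31.3 and 19.7 CPM in FL, rose there by 1.18 (adjusted p = 0.0326, standard error 0.23) and had an interaction of 1.34 (adjusted p = 0.0932, standard error 0.28), short of the threshold. Of 16 tested Notch targets 0 were called by edgeR, with 1 higher (background 3.82%) and 2 lower (4.51%) at an unadjusted p under 0.05. The median over 11 members measured in all lines was 0.02. NRARP, a feedback inhibitor of Notch signalling, was at 2.5, 3.3 and 1.61 CPM and 5.88, 6.03 and 3.8 CPM in SK-N-SH, with separate groups and an interaction of 0.97 (adjusted p = 0.32, standard error 0.30). HEY2 was under 0.2 CPM in SK-N-SH in every library.

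Several groups had a small difference of 1 sign in most members with no call among them. Over all 10357 genes measured in 3 lines, 5029 interactions were positive and 5328 negative. Members of a list share the same 18 libraries and are not independent, and the counts of signs here and in the next paragraph were not tested. For hypoxia and glycolysis genes all 18 members measured in 3 lines had a positive interaction. Its median was 0.31, beside 0.28 in SK-N-SH, -0.19 in BON-1 and -0.04 in QGP-1. Of 21 tested, 5 had an unadjusted p under 0.05 by edgeR, all higher (background 3.82%). EGLN1, an oxygen-sensing hydroxylase, had 124, 158 and 109.5 CPM in SK-N-SH vector and 272, 206 and 154 CPM in FL, and its interaction was 0.84 (adjusted p = 0.311, standard error 0.26). Its SK-N-SH groups overlapped by 1 library, FL replicate 3. The targets of p53 had the opposite sign, with 13 of 17 measured members negative and a median of -0.39 (-0.55, -0.09 and -0.02 in the 3 lines). Of 20 tested, 6 were lower at an unadjusted p under 0.05 by edgeR (background 4.51%). All SK-N-SH FL libraries lay below vector for 10 (background 8.96%), against 2 in BON-1 (3.42%) and 0 in QGP-1 (4.34%). MDM2, the ubiquitin ligase that holds p53 down, had 251, 258 and 206 CPM and 135, 169 and 185 CPM in SK-N-SH, 53.6, 36.9 and 71.2 and 86.8, 72.3 and 78.2 CPM in BON-1 and 456, 442 and 440.1 and 624, 622 and 492 CPM in QGP-1. Its groups separated in every line, downward in SK-N-SH and upward in both others, with an interaction of -1.01 (adjusted p = 0.146, standard error 0.24) that missed the threshold. Leaving out SK-N-SH vector replicate 3 moved the median over the 21 tested hypoxia genes from 0.29 to 0.54 and that over the 20 tested p53 targets from -0.45 to -0.70.

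The cell cycle and ATF4 groups moved with single libraries. Of 24 cell cycle and replication genes 23 had a negative interaction, with a median of -0.32, but the SK-N-SH median was 0.01 and those of BON-1 and QGP-1 0.46 and 0.20. PCNA, the sliding clamp of DNA polymerase, had 65.8, 211 and 192 CPM in BON-1 vector and 248, 237 and 209 CPM in BON-1 FL. Vector replicate 1 alone was low, and it is the library that stood apart in BON-1. Without it the median was -0.09, without SK-N-SH vector replicate 3 0.00, and without SK-N-SH FL replicate 2 -0.16. It moved the other way, to -0.64, -0.57, -0.53 and -0.48, without SK-N-SH FL replicate 3, QGP-1 vector replicate 1, BON-1 vector replicate 2 and SK-N-SH vector replicate 1. None of the 24 was called, and 0 had an unadjusted p under 0.05. Among 16 genes of ATF4 and endoplasmic reticulum stress 15 were positive, with a median of 0.51, and ASNS, asparagine synthetase, had 441, 96.3 and 99.6 CPM in BON-1 vector, again with replicate 1 apart, and 109, 103 and 108 CPM in FL. The ATF4 median was 0.35 without that library.

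**Figure D5:**
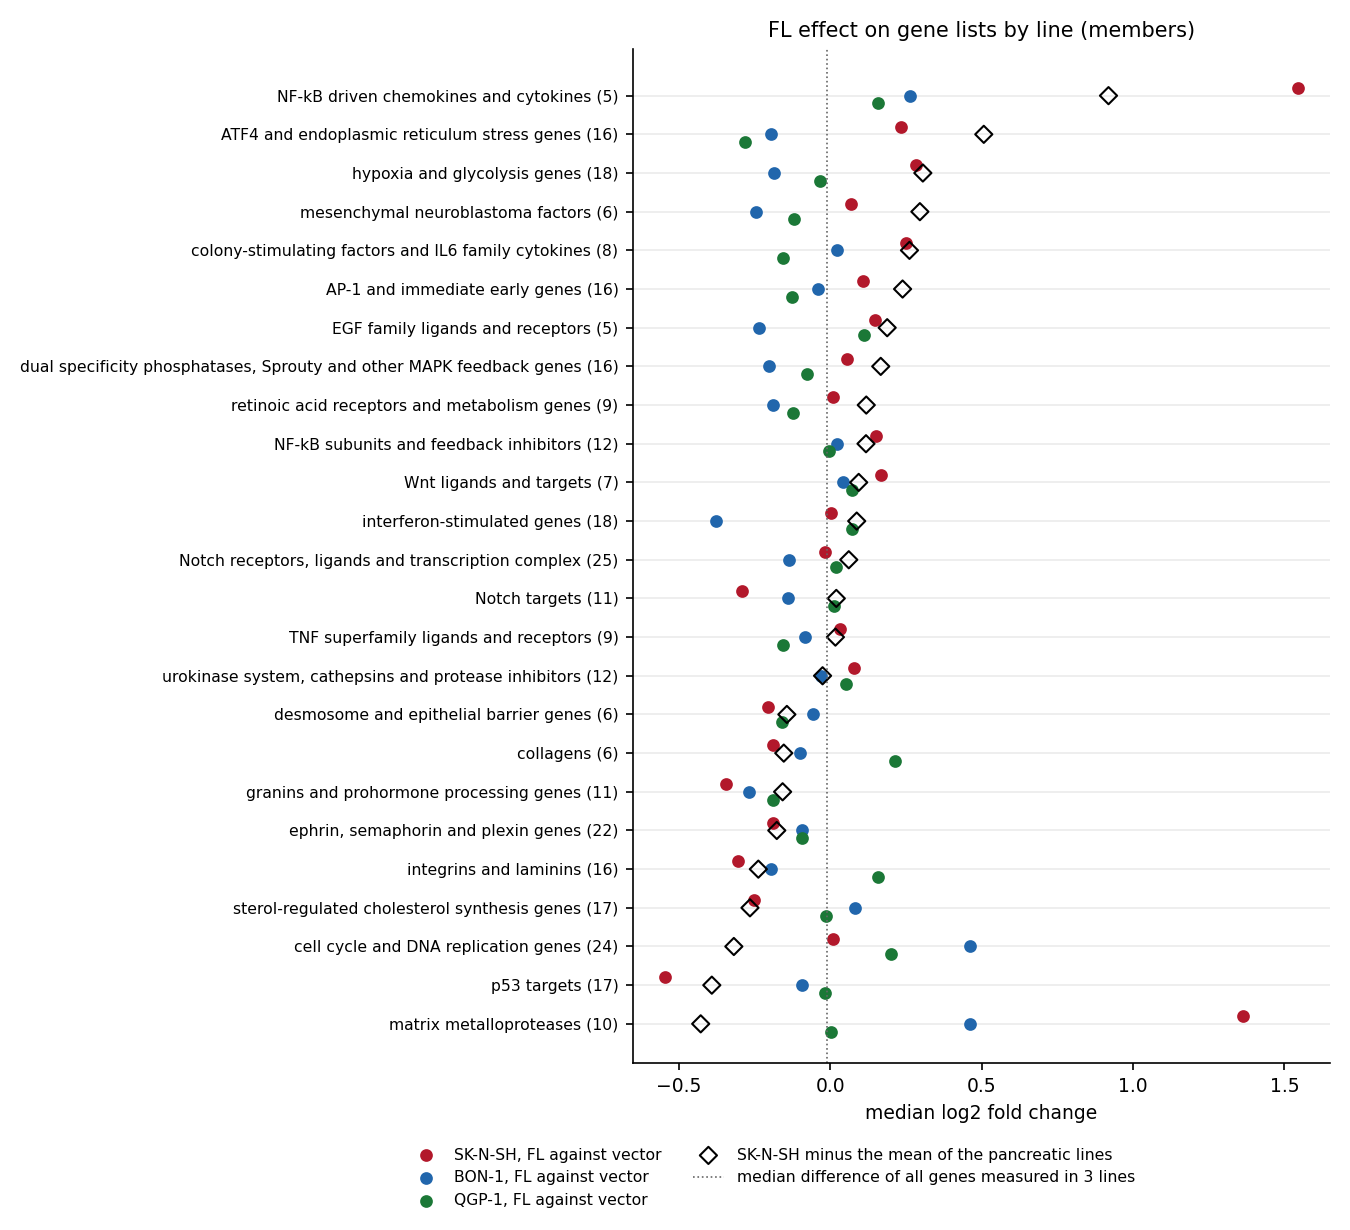
Median log2 fold change of FL against vector in each line (coloured points), and median interaction (open diamonds), for gene lists with at least 5 members measured in all 3 lines, numbers of such members in brackets. The dotted line is the median interaction of all 10357 measured genes; the list of metalloproteases stands at 1.36 in SK-N-SH and 0.46 in BON-1, and that of NF-kB driven genes at 1.55 in SK-N-SH. These rest on 10 of 19 and 5 of 20 tested members, and over all tested members they are 0.38, 0.11 and 3.70.

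Over all 32 lists, 9 of 564 distinct members tested were called, beside 0.187% of all tested genes, in lists chosen with earlier results known: EREG, MMP24, DLL4, WNT7B, IL11, HAPLN1, FOXA2, GCG and ELF3. No member of the other lists passed, among them interferon-stimulated genes (27 tested, 2 with an unadjusted p under 0.05), immediate early genes (19 tested, 4), sterol synthesis genes (18 tested, 1) and adrenergic neuroblastoma factors (15 tested, 2). Over all tested genes 3.82% were higher and 4.51% lower at that unadjusted threshold by edgeR. A gene outside the 31 is not shown to respond alike in the 3 lines.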

How the data were processed

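RNA of 18 libraries was analysed, 3 per group. Per the submitters' processing notes and the design text, reads were trimmed with Trimmomatic, aligned to hg19 with HISAT2 and quantified with StringTie; versions, the annotation, strand and the step to counts are not given in the sources used here. The deposited values are estimated counts written as whole numbers, as the authors' table gives them. Low values heap at 5, so 1 unit may be worth less than 1 fragment and edgeR may take low genes as more precise than they are; counts divided by 5 were an alternative. Of 23234 rows, 4 with a repeated symbol were left out.

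edgeR 4.0.16 (R 4.3.3) fitted 6 groups in 1 quasi-likelihood model after filterByExpr and TMM scaling, with Benjamini-Hochberg adjustment over 16567 genes without MAML3. CPM uses TMM-scaled library sizes. Library totals of 73026244 to 120254457 set the precision of low genes, and the floor covers counting error only. Alternatives used limma 3.58.1 and DESeq2 1.42.0, other filters and scalings, and each library left out. The fit was tested on simulated data with changes in SK-N-SH FL only, in genes of at least 1 CPM on average, 50 at each size. It called 2% of 1.5-fold, 12% of 2-fold, 58% of 4-fold and 78% of 8-fold changes. Of 78 calls 3 were false. Figures used matplotlib 3.10.9.

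The comparison, its genes and the 32 lists were chosen with earlier results of these data known. Named genes were up to 12 called per direction among those measured in all 3 lines, up to 5 per direction among the other called genes, up to 4 called members of each list (otherwise up to 2 of smallest p), called genes with opposing effects, and genes that passed the same way in several lines. Further called genes are named so that every call is accounted for. Promoters are from RefSeq (GRCh38.p14), gene positions from GENCODE on hg19.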

Additional observations from a re-analysis of the deposited data

Results flagged for a closer look

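A test of the difference itself set lines apart in 4 contrasts: 31 genes for SK-N-SH against the mean of both pancreatic lines, 23 for SK-N-SH against BON-1, 17 for SK-N-SH against QGP-1 and 2 for BON-1 against QGP-1 (edgeR's quasi-likelihood test, Benjamini-Hochberg adjusted). For the genes measured in all lines the interaction, on the log2 scale, was 3.67 (adjusted p = 0.00136, standard error 0.40) for WNT7B, 3.02 (adjusted p = 0.0362, standard error 0.55) for IL11, 2.74 (adjusted p = 0.0208, standard error 0.44) for ELF3, 2.48 (adjusted p = 0.0208, standard error 0.41) for AMPD3, 1.92 (adjusted p = 0.0208, standard error 0.32) for SLC27A2 and 0.94 (adjusted p = 0.0415, standard error 0.17) for IL4R, all higher in SK-N-SH. It was -1.44 (adjusted p = 0.0271, standard error 0.24) for SORL1 and -1.89 (adjusted p = 0.00711, standard error 0.27) for MMP24, both lower.

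Where a group was near 0, the adjusted p of the interaction stands alone. For genes with the higher effect in SK-N-SH it was 0.000425 for DMKN, 0.00149 for KISS1R, 0.00183 for DLL4, 0.0068 for SOX8, 0.00711 for RNLS, 0.00818 for LMX1B, 0.011 for FOXA2, 0.0276 for PITX1, 0.0305 for EREG, 0.0353 for NFATC1, 0.0362 for CBFA2T3 and 0.0415 for CBLC. Among genes with the lower effect it was 0.00473 for GCG, 0.00711 for HAPLN1, 0.00767 for IFT57, 0.011 for TMEM105, 0.0208 for KCNT2, 0.0281 for HMGCLL1, 0.0343 for MAF, 0.0353 for TENM3, 0.0415 for LOC105370792, 0.0415 for CCDC110 and 0.0492 for OVOL2. Between BON-1 and QGP-1 the adjusted p was 0.0176 for MMP1 and 0.0406 for IFT57. Groups of 3 libraries are too small for a check of single outlying libraries.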

How the results depend on the processing

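Of 958 values of called genes under the alternatives, 746 kept the call and its direction, 212 lost the call and 0 reversed; the cause was not tested. The 31 calls of the main interaction became 269 with DESeq2 (151 higher, 118 lower, 31 shared), 86 with limma-trend (28 shared), 68 with a replicate block (21 shared), 119 with a term for replicate 3 (29 shared), 61 with all 27 libraries (29 shared), 13 with counts divided by 5 (13 shared) and 57 without both SK-N-SH replicate 3 libraries (23 shared), the last an alternative chosen after seeing the data. No filter, a minimum of 2 CPM, DESeq2 size factors, TMM within lines, MAML3 left out of scaling and a robust spread gave 29, 31, 34, 33, 32 and 30. In the same order from DESeq2 onward, SK-N-SH minus BON-1 (23) gave 191, 52, 53, 55, 43, 10 and 60, and SK-N-SH minus QGP-1 (17) gave 198, 54, 52, 53, 27, 6 and 42. BON-1 minus QGP-1 (2) gave 47 with DESeq2, 6 with limma-trend, 0 with the replicate block, 0 with the term for replicate 3, and 1 each with TMM within lines, counts divided by 5 and without the SK-N-SH replicate 3 libraries. The SK-N-SH effect (107) gave 489 with DESeq2, 219 with limma-trend, 291 with the replicate block, 330 with the term for replicate 3 and 227 with all 27 libraries. The BON-1 effect (1) gave 55, 18, 0, 5 and 3 in that order, and 2 without the SK-N-SH replicate 3 libraries. The QGP-1 effect (11) gave 91 with DESeq2, 26 with limma-trend, 7 with the replicate block, 24 with the term for replicate 3 and 6 without those libraries.

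Leaving out 1 library at a time gave 18 to 56 calls in the main interaction, 10 to 54 against BON-1, 12 to 45 against QGP-1, 0 to 6 for BON-1 minus QGP-1, 34 to 139 in SK-N-SH, 0 to 6 in BON-1 and 3 to 17 in QGP-1. Uncalled interactions changed sign with a library left out for COL4A1 (-2.08 to 0.039, positive without QGP-1 FL replicate 3, the 1 QGP-1 library where it was not at 0, with 0.0474 CPM, so these fitted values measure no size), IL1RAP (-0.32 to 0.035, positive without SK-N-SH vector replicate 3, and 0.16 without both replicate 3 libraries) and MMP1 (-0.48 to 0.087, positive without SK-N-SH or BON-1 vector replicate 2). After the mean log2 CPM of each group was subtracted, same-numbered vector and FL libraries correlated above 0.1 in 7 of 9 pairs (lowest -0.11), and in all 3 of BON-1 (0.11, 0.21 and 0.36). Pairing was taken to need every pair above 0.1, which held in BON-1 alone. Differently numbered pairs reached 0.12 in BON-1 (FL replicate 1 with vector replicate 2), 0.22 in SK-N-SH (FL 2 with vector 1) and 0.31 in QGP-1 (FL 3 with vector 2). The rule therefore does not show that equal numbers mark pairs. With the replicate block 10 of the 31 calls were lost: CBFA2T3, GCG, HMGCLL1, IL11, KCNT2, LOC105370792, NFATC1, SLC27A2, TENM3 and TMEM105 (adjusted p from 0.0503 for KCNT2 to 0.14 for GCG). Depth limits genes near the floor, where 1 unit's worth in fragments is unknown.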

Other observations

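The 9 libraries with MAML3 lacking its first exon (dEx1) were set beside the others as levels only, with no test, scaled over 27 libraries. In SK-N-SH, WNT7B averaged 0.675 ± 0.216 CPM (SD, n = 3) with dEx1, against 0.746 ± 0.312 CPM with vector and 11.1 ± 2.2 CPM with FL. IL11 averaged 33.8 ± 9.0 CPM with dEx1, 24.4 ± 6.33 CPM with vector and 180.4 ± 110.1 CPM with FL. DLL4 was at 0.159 ± 0.161, 0.0767 ± 0.0695 and 1.81 ± 0.508 CPM in the same order. For these 3 ligands the dEx1 mean was nearer to the vector mean than to the FL mean. They, like MMP24 and HAPLN1, were picked by a test that used the same vector and FL libraries. The order of the means therefore describes these genes and is no test. The MAML3 level of the dEx1 libraries is not given here. MMP24 had 33 ± 7.03 CPM with dEx1, 21.2 ± 3.21 CPM with vector and 6.42 ± 2.55 CPM with FL, and HAPLN1 had 205 ± 34.6, 106 ± 37.7 and 31.4 ± 12.4 CPM. Both dEx1 means were above the vector mean, whereas both FL means were below it.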
